A study of Homo sapiens with 12 samples.

Results

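Glycolysis was followed through 10 genes, the glucose transporter SLC2A1 and the 9 enzymes HK2, GPI, PFKP, ALDOA, GAPDH, PGK1, ENO1, PKM and LDHA. They were found by gene name in the table of each cell line, and all 10 were present among the 29657 genes listed for SCC15 and the 31055 listed for SCC25. Both lines are squamous carcinoma cells of the oral cavity, labelled as wild type in genotype, and each stands for 1 tumour only. Cells of each line were exposed for 24 h either to DMSO, the solvent, or to squamocin, a plant acetogenin that blocks mitochondrial Complex I, given at 10 µg/mL and labelled ACGs (annonaceous acetogenins) in the sample records. Gene expression was measured by RNA-seq in 12 libraries, 3 for each line and treatment. The records do not say whether the 3 libraries of a group came from separate cultures, so the p-values measure the spread between these libraries, which may be technical.

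Glycolysis turns glucose into pyruvate in the cytosol and yields ATP without oxygen. SLC2A1 (GLUT1) carries glucose across the plasma membrane, hexokinase traps it as glucose 6-phosphate, phosphofructokinase commits it to the pathway, and the later enzymes extract ATP and NADH before lactate dehydrogenase turns pyruvate into lactate and regenerates NAD+. Carcinoma cells commonly run the pathway fast even with oxygen present, and cells whose respiration is blocked depend on it for ATP. Many of its genes are known targets of hypoxia-inducible factors and of the transcription factor MYC. RNA levels were measured here, not enzyme activity or glucose use.

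The libraries held between 16665563 and 22748845 reads counted to genes. Values are normalized counts, reads divided by 1 size factor per library. The normalized totals were unequal between treatments. In SCC15 they ranged from 20467856 to 24626253 with squamocin and from 15466464 to 15535484 with DMSO, and in SCC25 from 20917114 to 21265099 and from 18245022 to 18333723. Scaling all libraries to equal totals moved the median log2 fold change of all genes by -0.51 in SCC15 and by -0.21 in SCC25, so values of the 10 genes that turned or lost their call, and the counts of each list, are also given at equal totals. Messenger RNA of the mitochondrial genome fell from 1.41% to 1.45% of the SCC15 libraries with DMSO to 0.307% to 0.393% with squamocin, and from 3.71% to 3.85% to 1.42% to 1.92% in SCC25. The squamous marker KRT17 was abundant in both lines, and in SCC15 KRT14 and PKP1 had DMSO means of 759 and 406, while KRT5, TP63, EPCAM, DSG3 and DSC3 had means of at most 17.5. The sum of the 10 squamous markers was higher with squamocin, at 206312 to 357300 against 111047 to 117235 in SCC15 and 41331 to 43264 against 27049.9 to 27287 in SCC25. KRT17 weighed heavily in it, with means that went from 112298 to 260258 in SCC15 and from 6064 to 18369 in SCC25. The markers did not move as 1 set. Of 7 tested in SCC15, 3 rose and 0 fell (2 and 3 at equal totals), and of 10 in SCC25, 5 rose and 4 fell (5 and 5). Summed over 6 genes, fibroblast markers were lower with squamocin in SCC15, at 482 to 486 against 708 to 784, and higher in SCC25, at 1073 to 1228 against 766 to 809.6. Leukocyte markers summed to 320 to 541 in SCC15, and in SCC25 to 335 to 427 with DMSO and 19.1 to 32.2 with squamocin, where CD14 went from 351 to 4.81. Endothelial markers summed to at most 178 in SCC15 and 296 in SCC25, and were lower with squamocin in both. In the third squamocin library of SCC15 PGK1, ENO1 and LDHA were higher, and SLC2A1, HK2 and PFKP lower, than in the other two. The part of these differences in the results below was not tested.

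Of the 10 genes, 8 were called in both lines with opposite directions, a count not made over all genes. Of these 8, 4 kept both calls at equal library totals, GPI, ALDOA, GAPDH and PGK1. In SCC15, 9 were higher with squamocin and 0 lower (limma, adjusted p under 0.05), with a median log2 fold change of 0.62, beside 30.9% of the 15902 genes tested that were higher and 30% that were lower. In SCC25, 0 were higher and 9 lower, with a median of -0.79, beside 38.3% higher and 38.5% lower among 16539 genes. At equal library totals the SCC25 picture kept its direction, with 0 higher and 10 lower and a median of -0.997 (background 30.3% higher and 47.6% lower). The SCC15 picture did not keep its size at equal totals. There those 4 genes were higher, LDHA was lower, and the median was 0.12 (background 14.6% higher and 51% lower). In these bulk samples, fewer cells of one kind and less RNA per cell cannot be told apart.

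**Figure D1:**
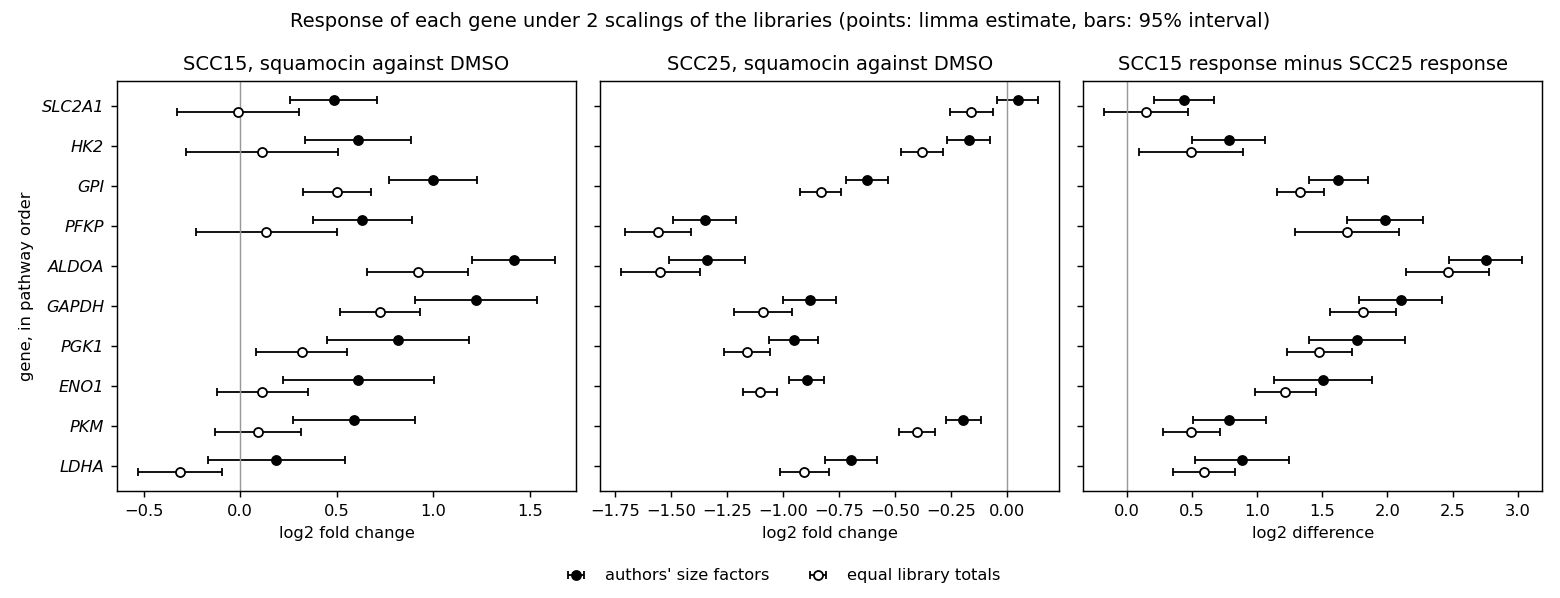
Log2 fold changes of the 10 genes with squamocin against DMSO in SCC15 (left) and SCC25 (middle), and the SCC15 response minus the SCC25 response (right), with limma estimates as points and their 95% intervals as bars. Filled points use the authors' size factors and open points equal library totals. With size factors all 10 SCC15 points lie above 0 and 9 of 10 SCC25 points lie below it. At equal totals SLC2A1 and LDHA in SCC15 and SLC2A1 in SCC25 pass to the lower side.

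Because most of the genes moved the same way within a line, the promoters of 4 members that differ in their copies of 2 short motifs are shown. The sequences are RefSeq promoters of GRCh38.p14, the 250 bases before a transcription start, and capitals mark the motifs. The first motif is ACGTG, a form of the core bound by hypoxia-inducible factors and called the core here. The second is CACGTG, the E-box bound by MYC with MAX. Both were searched on both strands. Another form of the core, GCGTG, was not searched, although the ENO1 and PGK1 sequences shown hold it. An E-box holds the core on each strand and so counts as 2 core matches. A match is a description of the letters only. LDHA held 5 core matches in its first promoter, of which 2 E-boxes account for 4, PGK1 held 2 cores and 0 E-boxes, GAPDH held 1 E-box, and ENO1 held neither. The positions are chr11:18394313-18394562 on the plus strand for LDHA, chrX:78103998-78104247 on the plus strand for PGK1, chr12:6535014-6535263 on the plus strand for GAPDH and chr1:8878687-8878936 on the minus strand for ENO1.
LDHA: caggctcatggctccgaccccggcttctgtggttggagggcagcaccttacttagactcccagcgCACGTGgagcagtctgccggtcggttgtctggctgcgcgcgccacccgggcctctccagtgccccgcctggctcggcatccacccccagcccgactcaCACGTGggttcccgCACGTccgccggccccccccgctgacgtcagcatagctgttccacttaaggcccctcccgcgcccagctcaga
PGK1: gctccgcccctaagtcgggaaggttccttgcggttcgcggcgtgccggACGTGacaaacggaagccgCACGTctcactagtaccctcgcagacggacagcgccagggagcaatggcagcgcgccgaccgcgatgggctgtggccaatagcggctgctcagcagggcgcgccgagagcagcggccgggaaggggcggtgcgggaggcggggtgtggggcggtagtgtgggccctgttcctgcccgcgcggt
GAPDH: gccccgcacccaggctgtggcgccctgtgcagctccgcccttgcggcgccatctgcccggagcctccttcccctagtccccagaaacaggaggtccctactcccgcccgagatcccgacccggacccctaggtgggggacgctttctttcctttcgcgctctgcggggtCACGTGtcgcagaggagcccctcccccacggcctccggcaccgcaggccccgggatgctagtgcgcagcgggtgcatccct
ENO1: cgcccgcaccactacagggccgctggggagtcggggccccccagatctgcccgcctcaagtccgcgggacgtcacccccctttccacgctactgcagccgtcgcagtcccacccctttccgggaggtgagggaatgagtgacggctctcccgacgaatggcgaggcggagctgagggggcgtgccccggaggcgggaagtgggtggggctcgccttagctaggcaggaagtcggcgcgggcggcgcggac
The 10 genes had 17 promoters in the table. The core was found in 10 of these 17, in 7 of the 10 genes, and in 18.51% of all 35116 promoters. The E-box was found in 4 of the 17, 1 promoter each of HK2, ALDOA, GAPDH and LDHA, and in 6.345% of all promoters. SLC2A1, ENO1 and PKM held neither motif in this window.

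Glucose uptake is the entry to the pathway. SLC2A1 (chr1:42925375-42959176, minus strand) had normalized counts of 4119.8, 4685 and 3851 in the 3 squamocin libraries of SCC15 and 3020.0, 2972 and 3022 with DMSO. All squamocin libraries lay above all DMSO libraries, a 1.40-fold difference in means, with a log2 fold change of 0.48 ± 0.096 (SE) and an adjusted p of 0.00374. At equal totals that value was -0.013 with an adjusted p of 0.936. In SCC25 its counts were 5054, 4778 and 5074 with squamocin and 4719, 4981 and 4714 with DMSO. These groups overlapped, and the log2 fold change of 0.05 had a 95% interval from -0.04 to 0.14 (adjusted p of 0.312). At equal totals SLC2A1 was lower in SCC25, by -0.16 on the log2 scale (adjusted p of 0.00498).

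HK2 (chr2:74833981-74893359, plus strand), a hexokinase that binds the mitochondrial outer membrane, gave counts of 2310.3, 2456 and 1881 with squamocin in SCC15 against 1486, 1351 and 1497 with DMSO. The groups did not overlap, and the log2 fold change was 0.61 ± 0.12 (SE) with an adjusted p of 0.00324. It was 0.11 at equal totals, where the adjusted p was 0.577. In SCC25 HK2 was lower in every squamocin library, at 3019, 3029 and 2932 against 3421, 3473 and 3226. That difference was 1.13-fold, the smallest of the 9 that were called in SCC25, with a log2 fold change of -0.17 ± 0.043 (SE) and an adjusted p of 0.00300.

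The steps from glucose 6-phosphate to the triose phosphates rose in SCC15 and fell in SCC25, although at equal totals the PFKP value in SCC15 was not called. GPI (chr19:34359480-34402413, plus strand), which turns glucose 6-phosphate into fructose 6-phosphate, rose 2.00-fold in SCC15, from 5730.3, 5625 and 5629.7 to 10353, 11303 and 12363. Its log2 fold change there was 1.00 ± 0.098 (SE), with an adjusted p of 0.000168. In SCC25 GPI fell 1.54-fold, from 7112, 7205 and 7027 to 4869, 4531 and 4456, and the log2 fold change was -0.62 ± 0.042 (SE; adjusted p of 3.07e-08). Neither line had a squamocin library inside the DMSO range.

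PFKP (chr10:3066333-3137712, plus strand), the platelet-type phosphofructokinase of the committed step, gave 6592, 7108 and 5583 with squamocin in SCC15 against 4132, 3969.8 and 4285 with DMSO. It was higher by 0.63 ± 0.11 (SE) on the log2 scale (adjusted p of 0.00205), and by 0.13 at equal totals with an adjusted p of 0.468. In SCC25 it fell 2.54-fold, to 1647, 1503 and 1837 from 4086, 4393 and 4190.4. With a log2 fold change of -1.35 ± 0.065 (SE, adjusted p of 1.19e-09) it was, with ALDOA, one of 2 members past an absolute log2 fold change of 1 in SCC25. How many of all genes passed that threshold was not counted.

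ALDOA (chr16:30064164-30070457, plus strand) encodes the main aldolase, which splits fructose 1,6-bisphosphate. Its counts rose in SCC15 from 259, 233 and 247 to 633, 684 and 658, which was 2.67-fold, and fell in SCC25 from 1540.1, 1549.8 and 1540.2 to 541, 600.0 and 696, which was 2.52-fold. The log2 fold changes were 1.41 ± 0.093 (SE; adjusted p of 3.44e-05) and -1.34 ± 0.078 (SE; adjusted p of 7.23e-09). These counts are a partial measure of ALDOA, since 42.8% of its exonic bases also belong to the annotated gene ENSG00000285043, and how the counting treated reads in shared exons was not given in the sources used here. The overlapping gene itself had DMSO means of 36.3 in SCC15 and 82.6 in SCC25 and squamocin means of 13.6 and 7.38, with the squamocin libraries below all DMSO libraries in both lines.

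The enzymes that make NADH and the first ATP moved with the upper steps. GAPDH (chr12:6533927-6538374, plus strand), which oxidizes glyceraldehyde 3-phosphate, rose 2.34-fold in SCC15, from 40118, 38923 and 39244 to 83542.5, 92706 and 100231 (log2 fold change 1.22 ± 0.14 SE, adjusted p of 0.000284). It fell 1.84-fold in SCC25, from 60259, 59382 and 59372 to 31320.1, 30262 and 35879 (log2 fold change -0.88 ± 0.055 SE, adjusted p of 1.33e-08). GAPDH is widely used as a reference gene, and in neither line did its squamocin libraries reach the DMSO range. Its 18 listed processed copies together held at most 0.621% of its level in any library.

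PGK1 (chrX:77910739-78129296, plus strand), which makes ATP from 1,3-bisphosphoglycerate, gave 18913.5, 21202 and 28364 with squamocin in SCC15 against 12747, 12994 and 12604 with DMSO. It was higher in each squamocin library, by 0.82 ± 0.16 (SE) on the log2 scale, with an adjusted p of 0.00334. In SCC25 PGK1 fell 1.93-fold, from 11581, 11505 and 11452 to 6155, 6267 and 5457, and the log2 fold change was -0.95 ± 0.050 (SE; adjusted p of 2.66e-09). Both directions held at equal totals, at 0.32 (adjusted p of 0.0258) and -1.16 (adjusted p of 3.52e-10).

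The last steps lead to pyruvate and lactate. ENO1 (chr1:8861000-8879250, minus strand), the enolase that forms phosphoenolpyruvate, gave 50978, 56595 and 74321 with squamocin in SCC15 against 39202, 39530.4 and 38816 with DMSO. The log2 fold change was 0.61 ± 0.17 (SE) with an adjusted p of 0.0150, and it passed 0.05 only while all DMSO libraries were kept. Leaving out DMSO library 1, 2 or 3 gave adjusted p-values of 0.0597, 0.0582 and 0.0647, and at equal totals the log2 fold change was 0.11 (adjusted p of 0.345). In SCC25 ENO1 fell 1.86-fold, from 57329.8, 55869 and 56507 to 30988, 30133 and 30153, with the smallest adjusted p of the 10 genes there (log2 fold change -0.89 ± 0.035 SE, adjusted p of 2.00e-10).

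PKM (chr15:72199029-72231822, minus strand) encodes pyruvate kinase, and its M1 and M2 splice forms cannot be separated in counts per gene. It rose in SCC15 from 53289.7, 53388 and 52681 to 72839.6, 82558 and 85018, a log2 fold change of 0.59 ± 0.14 (SE; adjusted p of 0.00718) that was 0.09 at equal totals (adjusted p of 0.414). In SCC25 it fell 1.14-fold, from 34045, 32746 and 32587 to 29489, 28443 and 28891 (log2 fold change -0.19 ± 0.036 SE, adjusted p of 0.000328). As with HK2, the groups did not overlap although the change was small.

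LDHA (chr11:18394388-18408425, plus strand), whose enzyme favours lactate from pyruvate, was the 1 member not called in SCC15. Its counts there were 26645, 29173 and 37724 with squamocin and 26337, 27635 and 27344 with DMSO, so that the groups overlapped. The log2 fold change of 0.19 had a 95% interval from -0.17 to 0.54 (adjusted p of 0.314). It was 0.041 without the third squamocin library and at most 0.29 without any other, and at equal totals LDHA was lower by -0.31 (adjusted p of 0.0205). In SCC25 LDHA fell 1.62-fold, from 21404, 20438.5 and 20724 to 13468, 13555 and 11676. The log2 fold change was -0.70 ± 0.054 (SE), with an adjusted p of 1.03e-07.

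**Figure D2:**
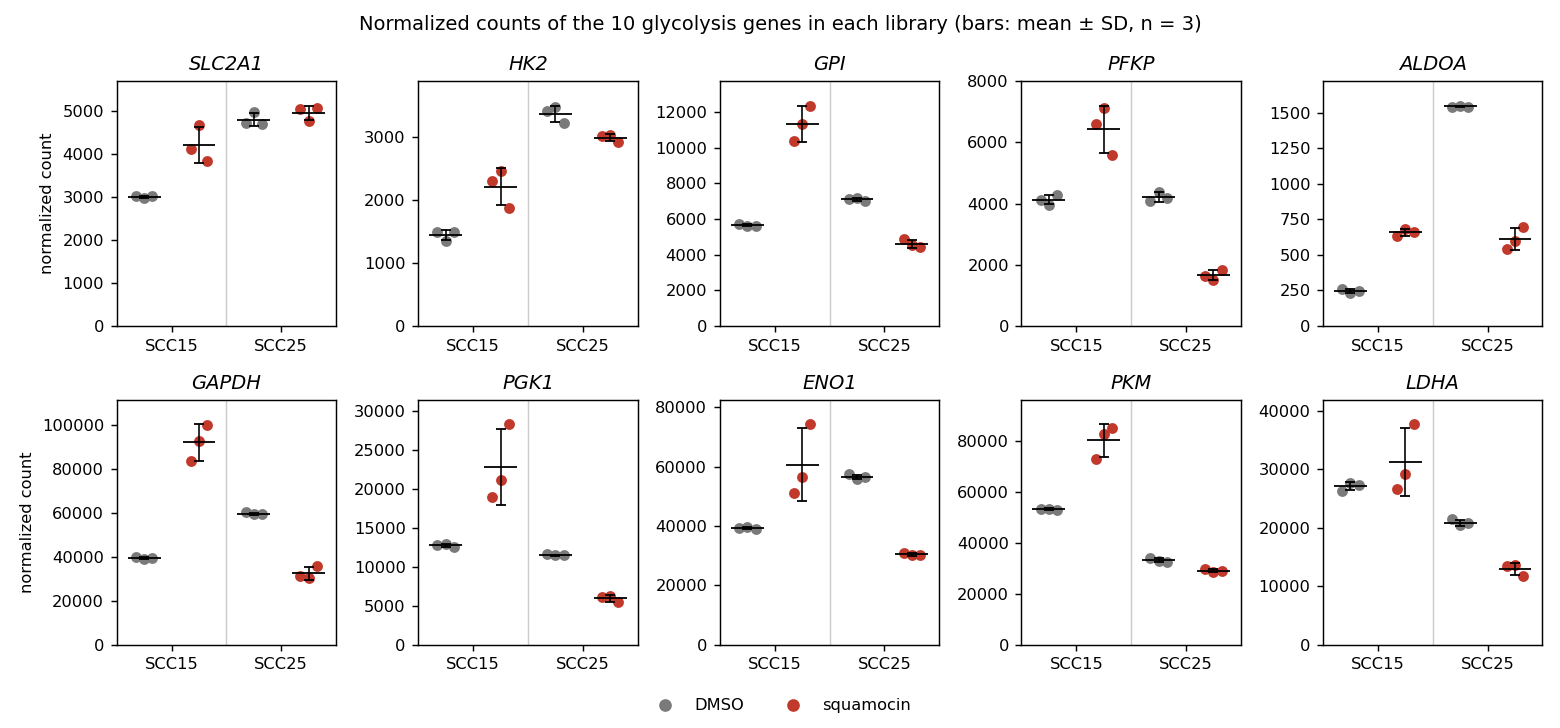
Normalized counts (vertical axes, from 0, a separate scale for each gene) of the 10 genes in each of the 12 libraries, with DMSO in grey and squamocin in red, and bars for the mean ± SD of 3 libraries. For every gene but LDHA the red SCC15 points lie above the grey ones, and for every gene but SLC2A1 the red SCC25 points lie below them. At equal library totals the SCC15 direction turns for SLC2A1 and LDHA. The 2 lines were normalized separately, so levels are not to be compared between them.

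With DMSO the pathway was far from evenly expressed. Per kilobase of exonic length, GAPDH had the highest normalized count of the 10 genes in both lines, 16456 ± 258 in SCC15 and 24904 ± 213 in SCC25 (SD, n = 3). It was followed in both lines by ENO1, PKM, LDHA and PGK1, from 7512 ± 68.5 for ENO1 to 2351 ± 36.3 for PGK1 in SCC15. The order of the rest differed by line. In SCC15 it ran PFKP, GPI, SLC2A1, HK2 and ALDOA, with PFKP at 531 ± 20.3 and GPI at 530.1 ± 5.58 overlapping. In SCC25 it ran SLC2A1, GPI, HK2, PFKP and ALDOA, with HK2 at 570.0 ± 22.0 and PFKP at 543 ± 20.1 overlapping. All other neighbours were separate in their libraries. Lengths were the merged exons of all annotated transcripts of a gene, so this order depends on the annotation. Without division by length PKM had a higher DMSO mean than GAPDH in SCC15, 53119 against 39428. GPI then lay above PFKP there, at 5662 against 4129. Per kilobase, the 5 highest genes stood between percentiles 98.5 and 99.9 of the protein-coding genes in both lines. ALDOA, with its shared exons, stood at percentile 51.4 in SCC15 and 88.7 in SCC25.

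The spread between libraries reached higher values with squamocin. The coefficient of variation over the 3 libraries ranged from 3.87% to 21.6% for the 10 genes with squamocin in SCC15 and from 0.721% to 5.62% with DMSO. In SCC25 the ranges were 1.60% to 12.7% and 0.362% to 3.87%. The highest value belonged to PGK1 in SCC15, where the third squamocin library stood above the other two.

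As a share of all normalized counts, which no size factor can change, the 10 genes together took 1.35%, 1.48% and 1.42% of the squamocin libraries of SCC15 and 1.20% of each DMSO library. The mean difference was 0.218 percentage points. In SCC25 they took 0.597%, 0.579% and 0.607% with squamocin against 1.12%, 1.10% and 1.10% with DMSO, a difference of -0.515 points. In neither line did the groups overlap, and the exact two-sided permutation p was 0.1 in each, which is the smallest that 3 against 3 libraries can give. Taken singly in SCC15, GPI, ALDOA, GAPDH, PGK1 and PKM held a higher share in every squamocin library than in any DMSO library, and LDHA a lower one. GAPDH alone went from 0.254% to 0.420% of the SCC15 libraries, while LDHA went from 0.175% to 0.141%. In SCC25 the shares of all 10 genes, SLC2A1 included, were lower in every squamocin library than in any DMSO library. How many of all genes separated in this way was not counted. At equal totals, limma called 30.3% of the genes tested in SCC25 higher and 47.6% lower, and 14.6% and 51% in SCC15.

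Most steps are served by several isoenzymes with different tissue use. Each member's share of its step was taken from counts per kilobase and tested over libraries (exact two-sided permutation, 12 tests adjusted together). In SCC25 LDHA held 94.1%, 93.9% and 94.3% of the LDHA and LDHB level with DMSO and 77.3%, 77.4% and 78.0% with squamocin. That difference of -16.5 points had an exact p of 0.1, adjusted 0.171. Without division by length it was -9.52 points, and the aldolase step then shifted more, by -13.1 points in SCC25. LDHB, whose subunit favours pyruvate from lactate, rose in SCC25 from 647 ± 23.4 to 1850 ± 190.3 (SD, n = 3; log2 fold change 1.51, adjusted p of 1.16e-09) while LDHA fell. In SCC15 the LDHA share went from 96.8% to 94.8%, also without overlap (exact p of 0.1, adjusted 0.171), and LDHB rose by 0.90 on the log2 scale (adjusted p of 0.0206, 0.129 at equal totals).

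Of the other steps, ENO1 gave way slightly in both lines, from 98.2% to 96.5% of the enolase level in SCC15 and from 97.1% to 94.3% in SCC25, with no overlap of groups. ENO2, the neuronal enolase, rose in SCC15 by 1.93 (adjusted p of 1.25e-05) and had a log2 fold change of -0.0046 in SCC25 (adjusted p of 0.942, and 0.00385 for a value of -0.21 at equal totals). PFKP went from 35.5% to 30.5% of phosphofructokinase in SCC25, and from 47.4% to 47.9% in SCC15 with overlapping groups. HK2 gained in SCC25, from 55.7% to 59.4% of the hexokinases HK1, HK2 and HKDC1, since HK1 fell by 0.41 on the log2 scale, and in SCC15 its shares of 26.6% and 28.8% overlapped. ALDOA went from 37.6% to 25.9% of the aldolase level in SCC25 and from 46.6% to 47.1% in SCC15, with the limit from its shared exons. SLC2A1 made up at least 99.7% of the SLC2A1 and SLC2A3 level in every library.

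**Figure D3:**
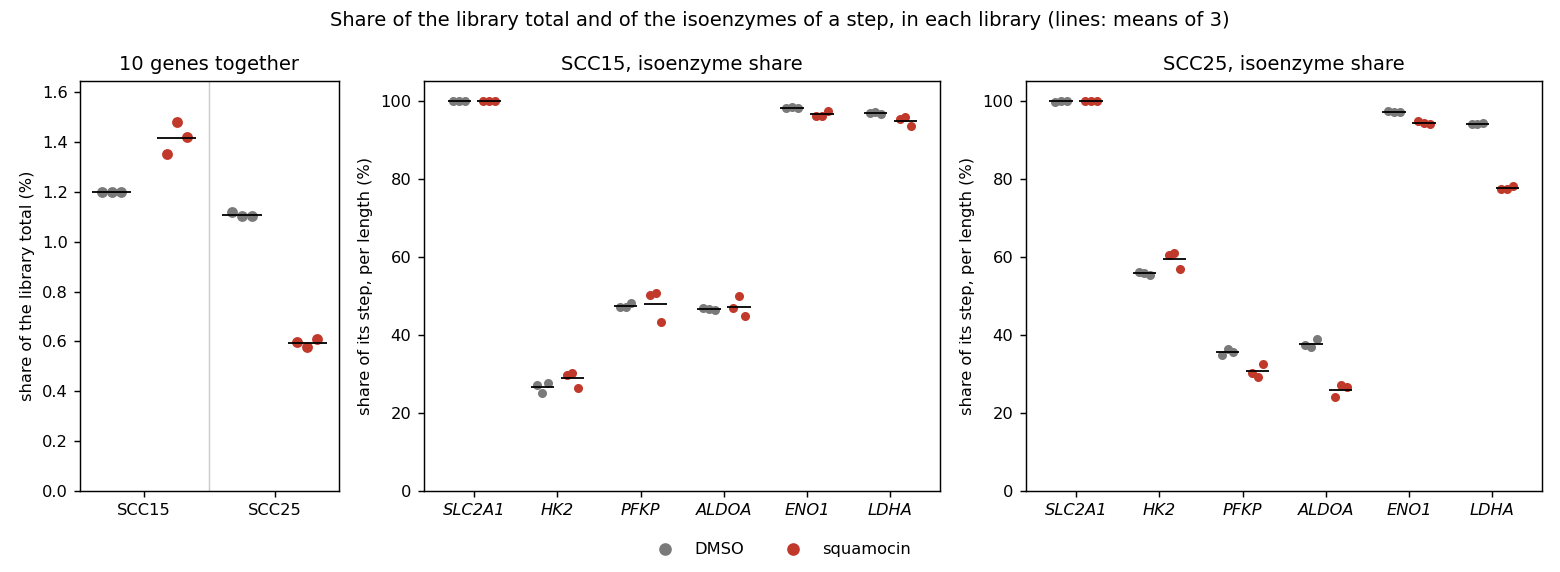
Shares in percent in each of the 12 libraries, with DMSO in grey, squamocin in red and lines for the means of 3. The left panel shows the share of the library total taken by the 10 genes, which rises from 1.20% to a mean of 1.42% in SCC15 and falls from 1.11% to 0.595% in SCC25. The other panels show each member's share of the isoenzymes of its step per exonic length in SCC15 and SCC25, where the LDHA points in SCC25 drop from about 94.1% to 77.6%.

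The difference between the lines was tested directly, as the SCC15 log2 fold change minus the SCC25 one. It was above 0 for all 10 genes (limma, adjusted p under 0.05). Of 14454 genes tested in both lines, 26.1% were called with a positive difference and 26% with a negative one. The median difference of the 10 genes was 1.56. ALDOA differed most, by 2.75 ± 0.13 (SE; adjusted p of 1.32e-08), followed by GAPDH with 2.10 ± 0.15 (adjusted p of 2.53e-07) and PFKP with 1.98 ± 0.13 (adjusted p of 1.93e-07). The ALDOA value has the limit from its shared exons given above. SLC2A1 differed least, by 0.44 ± 0.11 (adjusted p of 0.00385). At equal totals 9 of the 10 were called, all above 0, and the median was 1.27. Of all 14526 genes tested there, 2393 were called with a positive difference and 5470 with a negative one. The median over all of them was -0.28. The SLC2A1 difference of 0.15 had a 95% interval from -0.18 to 0.47 (adjusted p of 0.428).

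The remaining glycolytic enzymes and isoenzymes were counted in the same way. Of 13 tested in SCC15, 10 rose and 0 fell with a median of 0.44, and at equal totals 5 rose and 2 fell. Besides ENO2, the largest changes there among genes with a mean of at least 100 were in the brain aldolase ALDOC, at 1.38 (adjusted p of 6.17e-05), and the triose phosphate isomerase TPI1, at 0.91 (adjusted p of 0.00823). The weakly expressed hexokinase relative HKDC1 went from 16.9 to 56.8 (log2 fold change 1.82, adjusted p of 0.00525). Of 12 tested in SCC25, 3 rose and 7 fell with a median of -0.35, and at equal totals 2 rose and 9 fell. The liver and muscle phosphofructokinases PFKL and PFKM fell there by 1.11 and 0.88 on the log2 scale and the mutase PGAM1 by 0.82, all with adjusted p-values of at most 6.76e-09. So all 3 phosphofructokinase genes were lower in SCC25.

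Of the other hexose transporters tested, more were called lower than higher in both lines. In SCC15, 1 of 6 tested rose and 4 fell with a median of -0.71 (1 and 5 at equal totals), and in SCC25, 2 of 7 rose and 5 fell with a median of -1.29 (1 and 5 at equal totals). SLC2A10 at -1.20 and the proton myo-inositol transporter SLC2A13 at -0.77 fell in SCC15, where the intracellular transporter SLC2A8 rose by 0.98. In SCC25 SLC2A12, SLC2A11 and SLC2A6 changed by -1.51, -1.29 and -0.89. Each of these had an adjusted p of at most 0.000435. SLC2A8 rose in SCC25 too, by 0.48 (adjusted p of 0.000317), where SLC2A13 rose by 0.36 (adjusted p of 0.00617, and 0.168 at equal totals). SLC2A11 and the weakly expressed SLC2A12 also fell in SCC15, at -0.65 and -2.04 (adjusted p of 0.0120 and 0.00327). SLC2A6 had a value of 0.12 there (adjusted p of 0.328, and 0.0130 for -0.38 at equal totals).

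Lactate and pyruvate handling held genes of both directions. In SCC15, 5 of 7 tested rose and 1 fell with a median of 0.47, and at equal totals 1 rose and 2 fell with a median of -0.02. In SCC25, 4 of 7 rose and 1 fell with a median of 0.21 (3 and 2 at equal totals). The lactate exporter SLC16A3 (MCT4) fell in SCC25 from 5352 ± 32.6 to 2912 ± 205 (log2 fold change -0.88, adjusted p of 5.28e-09). Its chaperone BSG (basigin) rose in SCC15 from 19387 ± 289 to 43407 ± 5380.1, by 1.16 on the log2 scale (adjusted p of 0.000282), and had a log2 fold change of -0.04 in SCC25 (adjusted p of 0.374, and 0.000244 for -0.25 at equal totals). SLC16A8 rose by 0.47 in SCC15 (adjusted p of 0.0394, and 0.927 for -0.02 at equal totals), and SLC16A7 rose by 0.59 in SCC25 (adjusted p of 5.44e-05).

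Among 20 listed regulators of the pathway, 4 of 18 tested rose and 10 fell in SCC15 (0 and 13 at equal totals), and 7 of 17 rose and 9 fell in SCC25 (4 and 10 at equal totals). MYC went from 622 ± 12.2 to 1052 ± 103 in SCC15, by 0.75 on the log2 scale (adjusted p of 0.000518), although at equal totals the value was 0.26 with an adjusted p of 0.119. In SCC25 MYC fell from 6439 ± 141 to 1762 ± 78.2, by 1.87 on the log2 scale (adjusted p of 2.65e-12). The message of HIF1A, the oxygen-regulated subunit of hypoxia-inducible factor, had log2 fold changes of 0.15 in SCC15 (adjusted p of 0.250, and 0.0425 for -0.35 at equal totals) and 0.13 in SCC25 (adjusted p of 0.00628, and 0.0665 for -0.08 at equal totals). PDK2, a kinase that inhibits pyruvate dehydrogenase, fell by 0.84 in SCC15 (adjusted p of 0.00187) and by 1.91 in SCC25 (adjusted p of 8.29e-08). PFKFB3, which makes the activator fructose 2,6-bisphosphate, fell by 1.09 in SCC25 (adjusted p of 6.37e-09). It fell in SCC15 too, with a log2 fold change of -0.60 (adjusted p of 0.00446). ARRDC4, a glucose-responsive arrestin relative of TXNIP, fell by 0.96 in SCC15 (adjusted p of 0.000355). Its log2 fold change in SCC25 was -0.55 (adjusted p of 4.73e-07).

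Hypoxia-induced genes outside the pathway changed in both directions in both lines. In SCC15, 12 of 18 rose and 3 fell with a median of 0.86, and at equal totals 10 rose and 6 fell. In SCC25, 7 of 18 rose and 9 fell with a median of -0.08 (5 and 11 at equal totals). CA9, the membrane carbonic anhydrase, went from 39.4 ± 2.84 to 296 ± 129 in SCC15 and from 1598 ± 57.6 to 139 ± 16.1 in SCC25, log2 fold changes of 2.79 and -3.52 (adjusted p of 0.000211 and 2.82e-12). ADM, which encodes adrenomedullin, rose in both lines, by 3.44 in SCC25 (adjusted p of 3.87e-15) and 2.07 in SCC15. DDIT4 and NDRG1, both stress-induced, rose by 2.95 and 2.62 in SCC15 (adjusted p of 1.06e-05 and 3.20e-06), and the prolyl hydroxylase EGLN3 fell by 2.62 in SCC25 (adjusted p of 2.48e-11).

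Branches that leave glycolysis were counted beside the same shares of all genes. In the pentose phosphate pathway 5 of 8 tested genes rose and 1 fell in SCC15 (1 and 3 at equal totals), and 4 rose and 2 fell of 8 in SCC25 (2 and 3 at equal totals). Its transketolase TKT was called in opposite directions in the 2 lines, rising from 5868 ± 51.5 to 13615 ± 724 in SCC15 (log2 fold change 1.21, adjusted p of 5.22e-05) and falling from 6111 ± 235 to 2837 ± 290.1 in SCC25 (log2 fold change -1.11, adjusted p of 6.16e-09). The microsomal H6PD fell in both lines, by 0.73 in SCC15 and by 1.35 in SCC25, and RPIA rose in both, by 0.81 and 0.89, where the SCC15 value at equal totals was 0.31 (adjusted p of 0.0684).

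Hexosamine synthesis draws on fructose 6-phosphate, and its list here also holds OGA, which removes N-acetylglucosamine from proteins and is not part of the synthesis. There 4 of 7 tested genes rose and 1 fell in SCC15 (3 and 2 at equal totals, with the median turning from 0.40 to -0.10), and 5 of 7 rose and 1 fell in SCC25 (4 and 1 at equal totals). Its entry enzyme GFPT1 rose from 1883 ± 76.0 to 3289 ± 236 in SCC15 (log2 fold change 0.80, adjusted p of 0.000274) and from 1891 ± 36.6 to 6939 ± 255 in SCC25 (log2 fold change 1.87, adjusted p of 1.53e-12). GFPT2 and PGM3 rose by 1.17 and 0.86 in SCC15, and OGA and UAP1 by 1.13 and 1.10 in SCC25, all with adjusted p-values of at most 0.000255.

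In glycogen turnover 5 of 10 tested genes rose and 2 fell in SCC15 (1 and 4 at equal totals), and 3 of 11 rose and 6 fell in SCC25 (3 and 8). The glycogen synthase GYS1 fell in both lines, by 0.77 and 0.69. The phosphoglucomutase PGM1 rose by 0.72 in SCC15 (0.22 at equal totals, adjusted p of 0.0876), while in SCC25 the phosphorylase PYGL fell by 0.61 and PGM2L1 rose by 1.90. Enzymes that handle other sugars, not all of which lead into the pathway, numbered 4 higher and 0 lower of 11 tested in SCC15 (0 and 5 at equal totals), and 0 higher and 8 lower of 11 in SCC25 (0 and 11). Among genes with a mean of at least 100, PMM1, FUK and GALK1 led in SCC15 at 0.74, 0.65 and 0.61, none of them called at equal totals, and MPI, TKFC and SORD led in SCC25 at -1.25, -1.13 and -1.04. The weakly expressed ketohexokinase KHK fell from 82.4 to 9.67 in SCC25 (log2 fold change -3.06, adjusted p of 1.32e-06). In the glycerol phosphate branch GPD2 and GPD1L fell by 0.46 and 0.47 in SCC15, and 1 of 3 tested genes fell in SCC25 (2 at equal totals). Of 3 gluconeogenic genes tested in each line, the mitochondrial phosphoenolpyruvate carboxykinase PCK2 rose in both, by 1.81 in SCC15 and 0.52 in SCC25, and the pyruvate carboxylase PC fell by 0.90 in SCC25, where G6PC3 rose by 0.29 (0.08 at equal totals, adjusted p of 0.204).

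Commonly used reference genes were followed beside GAPDH. In SCC15, 8 of 12 rose and 0 fell with a median of 0.63, close to that of the 10 glycolysis genes, and at equal totals 3 rose and 2 fell with a median of 0.13. In SCC25, 7 of 12 rose and 5 fell, at both scalings, with a median of 0.55 where the 10 genes had -0.79. RPLP0 and B2M rose by 1.45 and 1.17 in SCC15, and in SCC25 TFRC fell by 1.41 while YWHAZ and HPRT1 rose by 1.12 and 0.96.

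**Figure D4:**
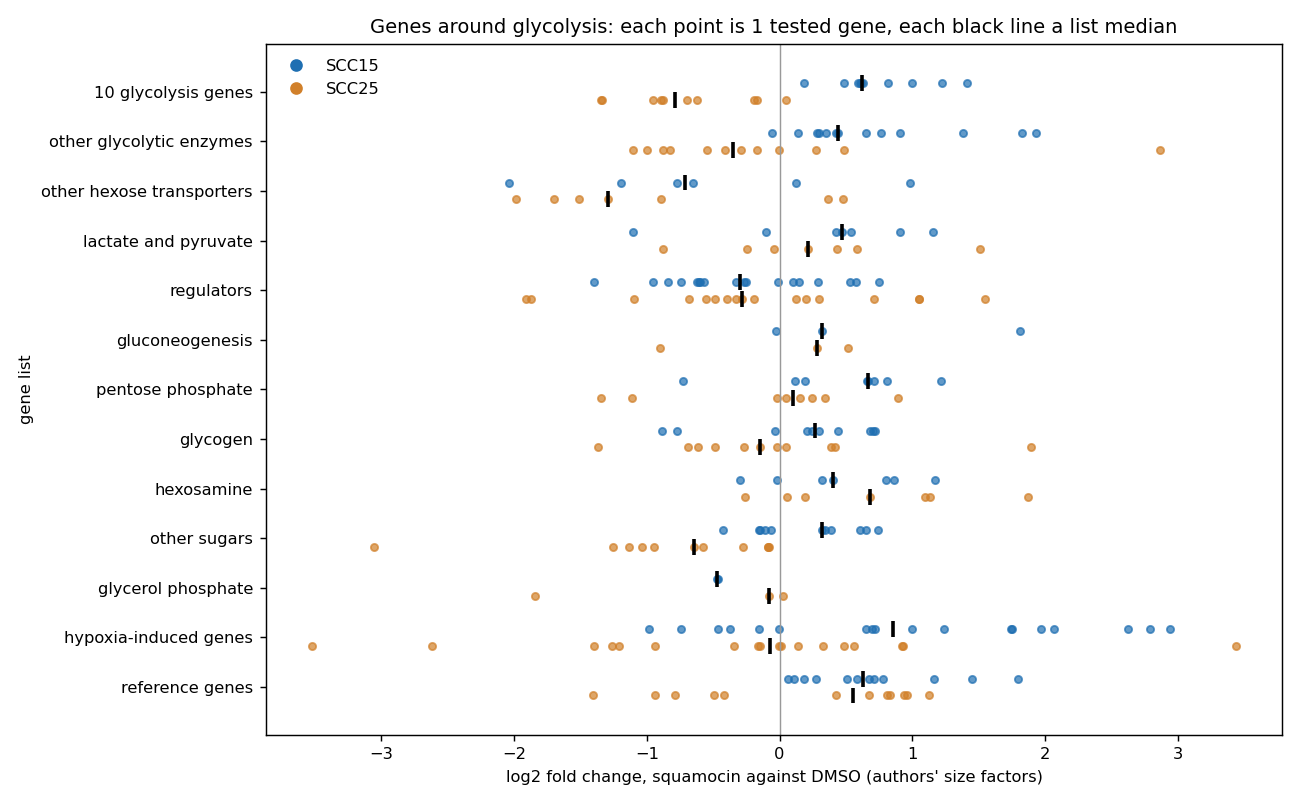
Log2 fold changes with squamocin against DMSO (horizontal axis, authors' size factors) of the 10 glycolysis genes and of the tested genes of 12 related lists, in SCC15 (blue) and SCC25 (orange), with black lines for list medians. The medians of the 10 genes lie at 0.62 and -0.79, those of other sugar enzymes at 0.32 and -0.64, and those of the reference genes at 0.63 and 0.55. At equal totals the SCC15 medians of the other glycolytic enzymes, lactate and pyruvate, gluconeogenesis, glycogen, hexosamine and other sugars pass below 0, to between -0.23 and -0.02, and the SCC25 median of the pentose phosphate list passes from 0.10 to -0.10.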

How the data were processed

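The study aligned reads of the 12 libraries to GRCh38 with HISAT2 2.0.5 and counted them per gene with featureCounts 1.5.0-p3. The deposited signal is a scaled read count: within each cell line's table the authors divided the reads of a library by its size factor. Headers of the SCC25 table call it FPKM, but 100% of the values in every library came out as whole reads at a tolerance of 0.01. Fold changes and p-values of the authors' own comparison were not used. Reads per library ranged from 16665563 to 22748845, and no library was left out.

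Squamocin was compared with DMSO within each line by limma 3.58.1 (R 4.3.3, trended eBayes, two-sided) on log2(normalized count + 1), for genes with a mean of at least 10, and p-values were adjusted over all of them by Benjamini-Hochberg. Fold changes are on that scale. The line difference was a contrast over all 12 libraries. Shares were compared by exact permutation tests (scipy 1.17.1). Exonic lengths, the merged exons of all transcripts of a gene, came from GENCODE, because the deposited tables give no length. Promoters came from RefSeq. Coordinates are those of the tables (GRCh38).

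The 10 genes and the related lists were chosen with earlier results of these data known. Of each related list, up to 3 genes per line with the largest change among those called, with a mean of at least 100, were named, with all isoenzymes and some cell type markers. Results of some single genes that this rule names are not reported here. HIF1A and KHK were added after their values were seen. So were BSG, ADM, PFKFB3, ARRDC4, SLC2A6, SLC2A8, SLC2A11, SLC2A12 and SLC2A13, each in the line where the rule did not name it. Alternatives were pseudocounts of 0.1 and 10, other filters, DESeq2 1.42.0 and edgeR 4.0.16 fitted to the recovered reads, TMM factors, libraries scaled to equal totals, a replicate block, each library left out and a fold threshold.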

Additional observations from a re-analysis of the deposited data

Results flagged for a closer look

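For all 10 genes the response to squamocin differed between SCC15 and SCC25 in a direct test of the difference (limma, adjusted p under 0.05). The SCC15 log2 fold change exceeded the SCC25 one by 0.44 for SLC2A1, 0.78 for HK2, 1.62 for GPI, 1.98 for PFKP and 2.75 for ALDOA. It exceeded it by 2.10 for GAPDH, 1.77 for PGK1, 1.51 for ENO1, 0.78 for PKM and 0.88 for LDHA. The ALDOA value has the limit from its shared exons. At equal library totals the SLC2A1 difference of 0.15 was no longer called, and the other 9 were. The 2 lines differed also in their normalized totals and in the drop of mitochondrial messenger RNA, and the part of these in the differences was not tested.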

How the results depend on the processing

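Counts, medians and the 30 log2 values of the 10 genes (each line and the difference) kept direction and call with pseudocounts of 0.1 and 10, both other filters, TMM factors, edgeR and DESeq2 on recovered reads, and the replicate block. The replicate block gave again 9 called upward in SCC15 and 9 downward in SCC25. Equal-numbered libraries did not pair, with correlations of their deviations between -0.05 and 0.01. Equal library totals gave 4 higher and 1 lower in SCC15 with a median of 0.12, a median of -0.997 in SCC25 and of 1.27 for the difference. They turned SLC2A1 to -0.013 and LDHA to -0.31 in SCC15 and SLC2A1 to -0.16 in SCC25, and ended the call of HK2, PFKP, ENO1 and PKM in SCC15 and of the SLC2A1 difference. The cause of the unequal totals was not tested. With a fold threshold of 1 on the log2 scale added, 2 of the genes passed upward in SCC15 and 2 downward in SCC25. At equal totals the same threshold passed 0 and 5, and edgeR and DESeq2 each passed 3 and 2. How many of all genes passed this threshold was not counted.

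Leaving out each library in turn gave medians from 0.61 to 0.69 in SCC15, from -0.80 to -0.76 in SCC25 and from 1.45 to 1.65 for the difference, and 8 to 9 genes higher in SCC15, the lost call being ENO1 without any 1 DMSO library. The difference in isoenzyme share between treatments changed sign for 4 steps with overlapping groups: from -0.0074 to 0.0081 points for glucose uptake, from -0.79 to 2.92 for PFKP and from -0.78 to 1.72 for ALDOA in SCC15, and from -0.031 to 0.063 for glucose uptake in SCC25. Without length the LDHA and ENO1 shifts in SCC25 were -9.52 and -2.28 points, and against protein-coding genes outside the mitochondrial genome the share of the 10 genes in SCC25 fell by 0.568 points. With 3 libraries a group, exact tests of shares cannot go below 0.1.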

Other observations

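Over the 12 libraries, with log2 values centred on the DMSO mean of each line, 9697 protein-coding genes were set beside SLC2A1 and LDHA, which stand at the ends of the pathway. The genes most like SLC2A1 were GFPT2 (Pearson r of 0.982), GTPBP1 (0.981) and ZC3H12A (0.976), with log2 fold changes of 1.17, 0.73 and 0.87 in SCC15 and of 0.06, 0.11 and -0.0048 in SCC25. Those most like LDHA were CCT3 (0.993), LITAF (0.993) and MFSD3 (0.992), with log2 fold changes of 0.14, 0.19 and 0.29 in SCC15 and of -0.85, -0.73 and -1.15 in SCC25. The points share treatment groups and size factors, so these values describe likeness of pattern only.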
